A study of Mus musculus with 6 samples.

Results

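Embigin (Emb), basigin (Bsg) and neuroplastin (Nptn) are related glycoproteins of the immunoglobulin superfamily that carry monocarboxylate transporters to the cell surface. They are described here with 6 transporter genes of the SLC16 family, Slc16a1, Slc16a3, Slc16a6, Slc16a7, Slc16a10 and Slc16a13, which makes 9 of the 24982 genes in the data. The members were chosen by symbol, and the set was selected on the readout, because Emb was listed at 0 in the KSFM-Ca2+ libraries only. The values of Emb are therefore given as a description with no test. The other 8 members entered as relatives or partners, and those with enough coverage were tested.

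The RNA-seq compared 2 mouse keratinocyte lines from C57BL/6 neonatal skin, with 3 libraries of each and no treatment. The KSFM-Ca2+ cells were established and kept in a serum-free medium low in calcium. The DKSFM cells are the part of that line that outlived a change to a defined medium with more calcium, in which they were then kept. Medium and selected line thus cannot be told apart. The paper bases its statistics in general on at least 3 independent experiments. What a replicate of the RNA-seq was is not stated in the sources used here, so p-values measure only the spread between these samples, which may be technical.

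Each file lists the mean read coverage per base of every gene to 1 decimal. The KSFM-Ca2+ libraries had a total coverage of 1601676, 1238411 and 1057750, and the DKSFM libraries one of 1174348, 1239438 and 1170675. Normalized coverage below is this value after scaling between libraries. The deposit marks 1 of the 3 KSFM-Ca2+ libraries (replicate 3) and all 3 DKSFM libraries as combined, a word the sources used here do not explain, so this mark partly follows the lines. It is not used except in 1 alternative, which leaves a single KSFM-Ca2+ library. Normalized coverage is a value per base, so levels of different genes can be compared within a library. Log2 changes are DKSFM over KSFM-Ca2+ on the log2(normalized coverage + 0.1) scale, on which changes of weakly covered genes come out too small. Adjusted p-values come from limma over 12409 tested genes.

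SLC16 proteins carry small acids such as lactate, pyruvate and ketone bodies, and some members carry amino acids instead. The lactate carriers MCT1 (Slc16a1) and MCT4 (Slc16a3) reach the plasma membrane only with an immunoglobulin-type partner, which is usually basigin. Embigin is the favoured partner of MCT2 (Slc16a7) and can also serve MCT1. In mouse skin embigin is known from the sebaceous gland, where it also binds fibronectin. Basigin and neuroplastin have other roles as well, among them as subunits of the plasma membrane calcium pumps and as binding proteins for S100A9.

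Emb lies at chr13:117208536-117274415 on the plus strand of GRCm38, the build of the files, as GENCODE M21 annotates it. Promoter sequences from RefSeq (GRCm38.p6), running from 250 bases before to 50 bases after the start of a gene, were matched for 5 of the 9 members. Those of Emb, Nptn and Slc16a1 are shown because these genes make up a partner listed at 0 in a single line, a partner with similar levels in both lines, and the main lactate transporter. They lie on the plus strand at chr13:117220323-117220622, chr9:58581990-58582289 and chr3:104638414-104638713. Capitals mark the E-box letters CACGTG, which read the same on both strands.
Emb: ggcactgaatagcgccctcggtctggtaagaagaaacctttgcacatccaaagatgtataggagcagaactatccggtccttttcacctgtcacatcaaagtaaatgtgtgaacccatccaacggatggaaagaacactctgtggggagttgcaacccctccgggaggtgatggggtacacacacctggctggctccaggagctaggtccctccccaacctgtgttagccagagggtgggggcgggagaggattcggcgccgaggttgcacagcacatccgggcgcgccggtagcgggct
Nptn: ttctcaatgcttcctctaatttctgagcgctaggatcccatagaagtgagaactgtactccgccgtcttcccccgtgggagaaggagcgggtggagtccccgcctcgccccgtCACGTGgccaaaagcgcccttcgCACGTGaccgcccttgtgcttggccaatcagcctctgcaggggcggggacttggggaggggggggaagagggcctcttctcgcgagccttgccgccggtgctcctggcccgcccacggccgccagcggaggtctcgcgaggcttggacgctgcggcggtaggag
Slc16a1: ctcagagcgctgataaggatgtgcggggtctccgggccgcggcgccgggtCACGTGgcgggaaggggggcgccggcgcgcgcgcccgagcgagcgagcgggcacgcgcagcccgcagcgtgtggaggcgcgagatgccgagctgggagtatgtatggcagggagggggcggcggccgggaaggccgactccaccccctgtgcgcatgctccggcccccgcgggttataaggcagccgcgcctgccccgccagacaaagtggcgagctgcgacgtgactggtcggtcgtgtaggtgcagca

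The Emb promoter window held no CACGTG. The Nptn window held it 2 times, 137 and 114 bases before the start, and the Slc16a1 window held it 1 time, 200 bases before the start. Of all 32817 promoters in the table, 7.15% held these letters. All 3 windows held GGGCGG on either strand, as did 35.6% of all promoters, and the only match in Emb was 11 bases before the start. CpG pairs numbered 14 in the Emb window, 27 in that of Nptn and 42 in that of Slc16a1, against a median of 7 over all promoters. The other matched members were Slc16a3 and Slc16a10, neither of which held CACGTG. Bsg, Slc16a6, Slc16a7 and Slc16a13 were not matched. GENCODE gives Emb 6 transcripts with several starts, and the window shows the RefSeq start alone. These matches describe letters in a window and say nothing about binding.

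Emb had no listed coverage in the KSFM-Ca2+ cells and a high level in the DKSFM cells. Its coverage was listed at 0 in all 3 KSFM-Ca2+ libraries, while the DKSFM libraries had 225.4, 256.2 and 221.4. After normalization the DKSFM values were 239, 256 and 235, with a mean of 243 ± 11.1 (SD, n = 3 libraries). This level lay at percentile 92.6 of the tested genes in the DKSFM cells. No fold is given against a line listed at 0. A listed value of 0.1 stands for about 1.62 reads of Emb, as an approximation from the median length of its 6 GENCODE transcripts. Some of these transcripts are not annotated as protein-coding, so the number of reads is rough. RNA came from whole cultures, so a change in the number of expressing cells and a change in RNA per cell cannot be told apart.

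**Figure D1:**
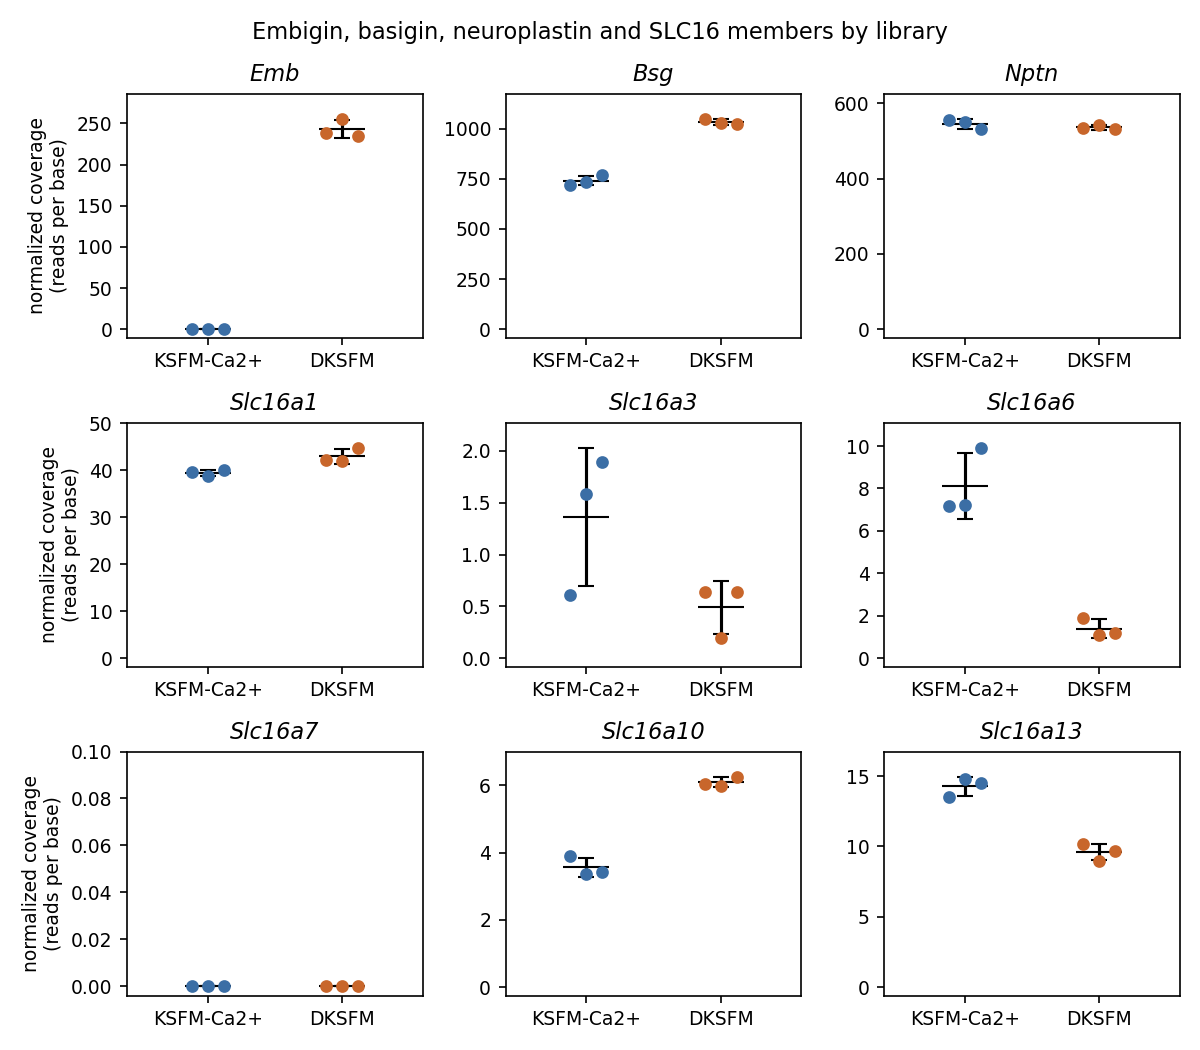
Normalized coverage (reads per base) of the 9 members in each of the 3 KSFM-Ca2+ (blue) and 3 DKSFM (orange) libraries; each panel has its own axis from 0, points are libraries, and black bars show the mean and SD. Emb is at 0 in the KSFM-Ca2+ cells and near 243 in the DKSFM cells, Nptn is at 546 and 536, and Slc16a7 is at 0 throughout.

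In all, 393 genes were listed at 0 in every KSFM-Ca2+ library and above 0 in every DKSFM library, and 246 genes showed the reverse. Among the 393, Emb had the rank 3 by DKSFM level, where the median level was 0.351 and 274 genes were under 1. A level of 10 or more was reached by 34 of them. Among these 393 genes, those closest to Emb over the 6 libraries, by Euclidean distance on the log2 scale, were Rtl3 (0.399), Lox (0.980), Mtus1 (1.503), Bbox1 (1.80) and Sptlc3 (2.04). All 393 were selected for 0 in the KSFM-Ca2+ libraries, so this distance reflects the DKSFM levels alone. These genes are accordingly those with the ranks 2, 1, 4, 5 and 6 by DKSFM level. Their DKSFM levels were 284 ± 0.762 for Rtl3, a gene derived from a retrotransposon, and 358 ± 11.1 for Lox, the enzyme that crosslinks collagen and elastin (SD, n = 3). Mtus1, which encodes a microtubule-associated protein, had a level of 133 ± 2.06. Bbox1, the last enzyme of carnitine synthesis, had a level of 119 ± 4.10. Sptlc3, a subunit of the enzyme that starts sphingolipid synthesis, had a level of 108 ± 4.86.

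**Figure D2:**
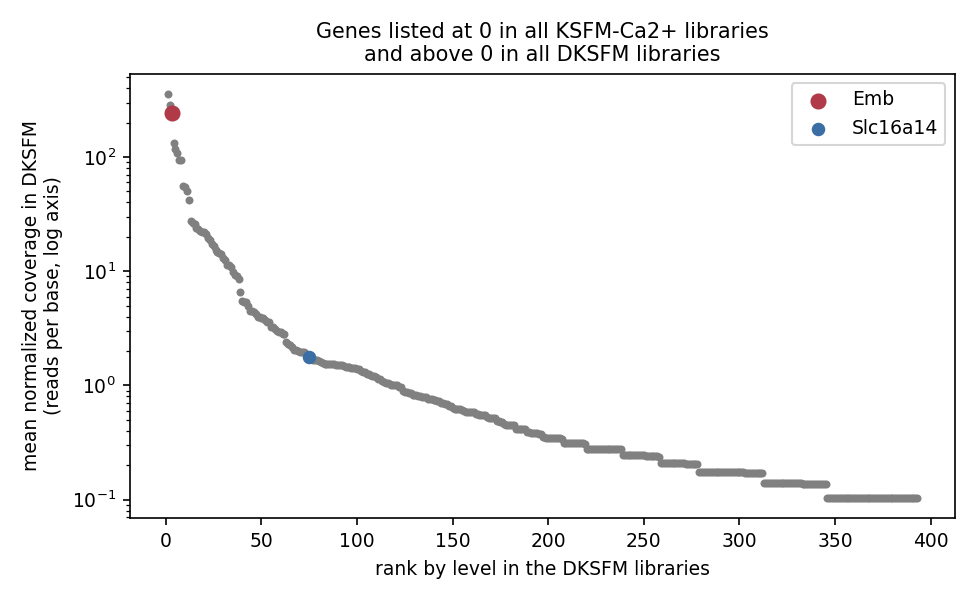
Mean normalized coverage in the DKSFM libraries (reads per base, log axis) of the 393 genes listed at 0 in all KSFM-Ca2+ libraries and above 0 in all DKSFM libraries, ranked from the highest. Emb (red) has the rank 3, while Slc16a14 (blue) has the rank 75.

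The genes near Emb on chromosome 13 that are described here did not show its pattern. Within 2 Mb, Fgf10 was listed at 0 in every library. Isl1, Parp8 and Mrps30 were tested and did not pass, with adjusted p-values of 0.643, 0.103 and 0.247 in limma. Of the protein-coding genes in the data, Parp8 was the closest, at 0.183 Mb. Parp8 stood at 12.5 ± 0.586 in the KSFM-Ca2+ cells and 13.6 ± 0.533 in the DKSFM cells (normalized coverage, SD, n = 3). Gm17509 overlaps Emb in the annotation and had no listed coverage above 0. These genes were named for their position after the data had been seen.

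Basigin was the most abundant member in both lines. Its coverage was listed at 945.8, 740.9 and 651.0 in the KSFM-Ca2+ libraries and 991.7, 1029.9 and 966.2 in the DKSFM libraries. Normalized, these were 742 ± 24.5 and 1034 ± 13.6, and the libraries of the lines did not overlap. Bsg rose by 0.48 on the log2 scale (SE 0.03, adjusted p = 1.7e-06 in limma), or 1.39-fold, which is under the 2-fold threshold. The level lay at percentile 97.9 of tested genes in the KSFM-Ca2+ cells and 98.7 in the DKSFM cells.

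Neuroplastin did not pass the test. It was listed at 730.4, 553.5 and 449.9 in the KSFM-Ca2+ libraries and 504.2, 544.2 and 501.6 in the DKSFM libraries. The normalized levels of 546 ± 13.1 and 536 ± 6.04 overlapped between the lines. The log2 change of Nptn was -0.03 (95% confidence interval -0.09 to 0.04, adjusted p = 0.416 in limma). This interval holds only small differences, but like the p-values it measures only the spread between these samples, which may be technical. The sign of the Nptn change turned, to 0.016, when only the libraries marked as combined were used. That setting has KSFM-Ca2+ replicate 3 alone against the 3 DKSFM libraries. Nptn overlaps Rec114, for which the KSFM-Ca2+ libraries were listed at 0 and the DKSFM libraries at 0.8 or less.

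Taken as a pool, the 3 partners had a summed normalized coverage of 1287 ± 11.4 in the KSFM-Ca2+ cells and 1813 ± 19.2 in the DKSFM cells (SD, n = 3). The difference of 526 was made up of 292 from Bsg, 243 from Emb and -9.49 from Nptn. Emb made up 13.1%, 14.0% and 13.1% of the pool in the DKSFM libraries. The share of Bsg was 57.6% ± 1.39 in the KSFM-Ca2+ cells and 57.0% ± 0.688 in the DKSFM cells, and that of Nptn was 42.4% ± 1.39 and 29.6% ± 0.244. In the DKSFM cells Bsg coverage was 4.26 ± 0.210 times that of Emb, and Nptn coverage was 2.21 ± 0.0748 times that of Emb. No test was run on these shares, since Emb was chosen for its values and 3 libraries against 3 cannot go below 0.10 in an exact permutation test.

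Slc16a1, which encodes MCT1, was the most abundant transporter. It was listed at 51.8, 39.1 and 33.9 in the KSFM-Ca2+ libraries and 39.8, 42.0 and 42.2 in the DKSFM libraries. The normalized levels were 39.4 ± 0.625 and 42.9 ± 1.58, and although the libraries did not overlap, the difference did not pass the threshold (log2 change 0.12, 95% confidence interval 0.03 to 0.22, adjusted p = 0.0226 in limma). At a threshold of 0.05 it would pass, with adjusted p-values of 0.0141 to 0.192 over the alternatives.

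The other classical lactate transporters had little or no coverage. Slc16a3, which encodes MCT4, the exporter of cells with high glycolysis, was listed at 0.8, 1.6 and 1.6 in the KSFM-Ca2+ libraries and 0.6, 0.2 and 0.6 in the DKSFM libraries. The lines overlapped and the log2 change of -1.29 (SE 0.48, adjusted p = 0.0358 in limma) did not pass. This call rested on KSFM-Ca2+ replicate 1, without which the log2 change was -1.74 and the adjusted p 0.00855, in a range of 0.00855 to 0.127 over the alternatives. Its size depended on the processing as well, with a log2 change of -0.64 at a pseudocount of 1 and -0.86 without DKSFM replicate 2. Slc16a7, which encodes MCT2, was listed at 0 in all 6 libraries, as was Slc16a8, which encodes MCT3. Slc16a1 therefore carried 96.7% ± 1.58 of the coverage of the MCT1 to MCT4 genes in the KSFM-Ca2+ cells and 98.9% ± 0.561 in the DKSFM cells.

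Coverage of the 3 partners over that of the MCT1 to MCT4 genes was 31.9, 31.8 and 31.0 in the KSFM-Ca2+ libraries and 42.6, 43.4 and 39.5 in the DKSFM libraries. The ratio draws on Emb, whose values chose the set, so the gap between the lines is a description. Without Emb, an alternative chosen after seeing the data, the DKSFM libraries had 37.0, 37.3 and 34.3, and the KSFM-Ca2+ values were the same. Without Nptn the means were 18.2 and 29.5. The ratio of Bsg alone to Slc16a1 was 18.8 ± 0.489 and 24.1 ± 1.07. These are ratios of RNA coverage and not of protein.

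**Figure D3:**
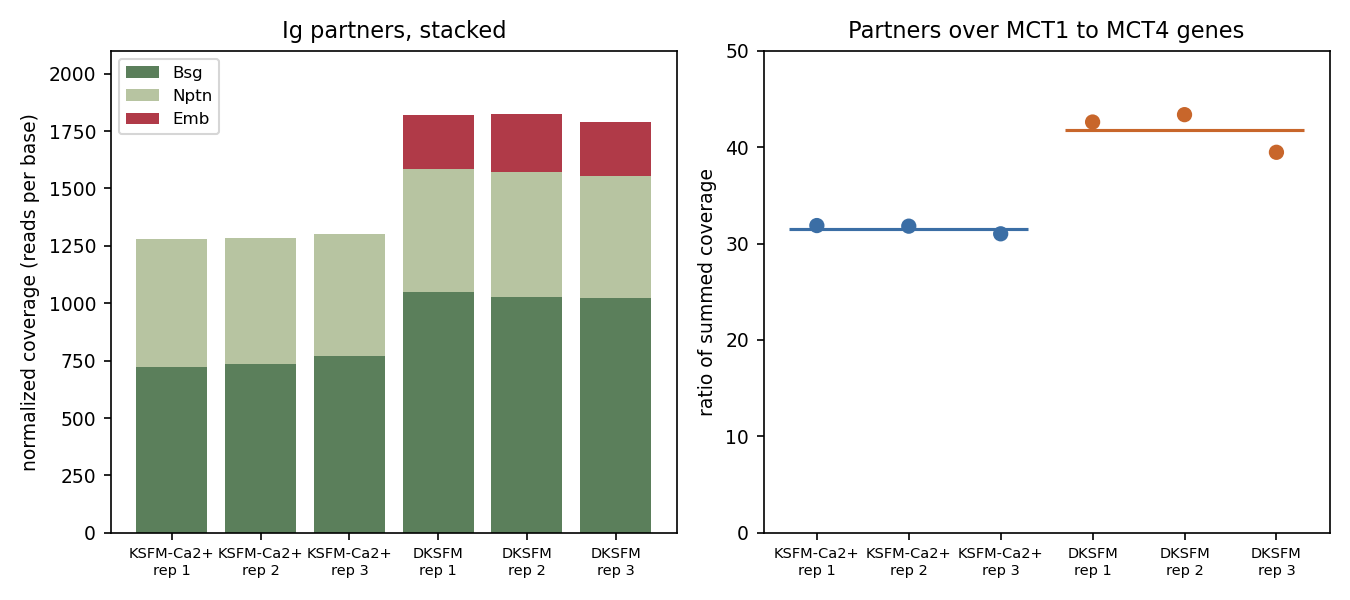
Left, normalized coverage (reads per base) of Bsg, Nptn and Emb stacked for each of the 6 libraries. Right, the ratio of their sum to the sum of the MCT1 to MCT4 genes, with points for libraries and lines for the means of 31.6 in the KSFM-Ca2+ cells and 41.8 in the DKSFM cells.

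The remaining members moved in both directions. Slc16a6, which encodes MCT7, a transporter linked to the export of ketone bodies, was listed at 9.4, 7.3 and 8.4 in the KSFM-Ca2+ libraries and 1.8, 1.1 and 1.1 in the DKSFM libraries. It fell by 2.49 on the log2 scale (SE 0.22, adjusted p = 1.2e-05 in limma) and was 5.60-fold lower in the DKSFM cells, with no overlap. Slc16a6 overlaps Amz2 and Arsg on the opposite strand. The authors aligned the directional reads with a strand setting, but whether the deposited coverage was taken by strand is not stated in the sources used here. Amz2 was listed at 52.0 to 79.4 in the KSFM-Ca2+ libraries and 42.6 to 46.3 in the DKSFM libraries, above Slc16a6 in each, so the values of Slc16a6 are less certain should strand not have been used. Arsg was listed at 0.1 to 0.2 and at 2.2 to 3.0.

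Slc16a13, which encodes MCT13, a transporter of lactate, was listed at 17.7, 14.9 and 12.3 in the KSFM-Ca2+ libraries and 9.6, 9.0 and 9.1 in the DKSFM libraries. Its normalized coverage fell from 14.3 ± 0.681 to 9.60 ± 0.591, by 0.57 on the log2 scale (SE 0.07, adjusted p = 9.1e-05 in limma). Slc16a10, which encodes TAT1, a carrier of aromatic amino acids, was listed at 5.1, 3.4 and 2.9 and at 5.7, 6.0 and 5.9. Its normalized coverage rose from 3.56 ± 0.284 to 6.09 ± 0.144, by 0.76 on the log2 scale (SE 0.09, adjusted p = 7.1e-05 in limma). For both genes the libraries of the lines did not overlap.

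In the KSFM-Ca2+ cells the order of normalized coverage was Bsg, Nptn, Slc16a1, Slc16a13, Slc16a6, Slc16a10 and Slc16a3, with Emb and Slc16a7 at 0. In the DKSFM cells it was Bsg, Nptn, Emb, Slc16a1, Slc16a13, Slc16a10, Slc16a6 and Slc16a3, with Slc16a7 at 0. Apart from the members at 0, no neighbours in either order overlapped in their libraries. Nptn was 13.8-fold above Slc16a1 in the KSFM-Ca2+ cells, and Emb was 5.66-fold above Slc16a1 in the DKSFM cells.

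Of the 9 members, 8 passed the filter on low coverage, Emb through the DKSFM libraries alone, and 7 were tested. At an adjusted p under 0.01, 2 were higher in the DKSFM cells (Bsg and Slc16a10) and 2 in the KSFM-Ca2+ cells (Slc16a6 and Slc16a13), against 35.3% and 37.3% of all tested genes. With a change of at least 2-fold as well, 0 were higher in the DKSFM cells and 1 in the KSFM-Ca2+ cells (Slc16a6), against 13.1% and 10.6%. The libraries of the lines did not overlap for 5 of the 7, against 83.3%. The median log2 change of the 7 was -0.03, beside -0.01 over all tested genes. Since the members were chosen in this contrast, nothing is read from these counts.

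**Figure D4:**
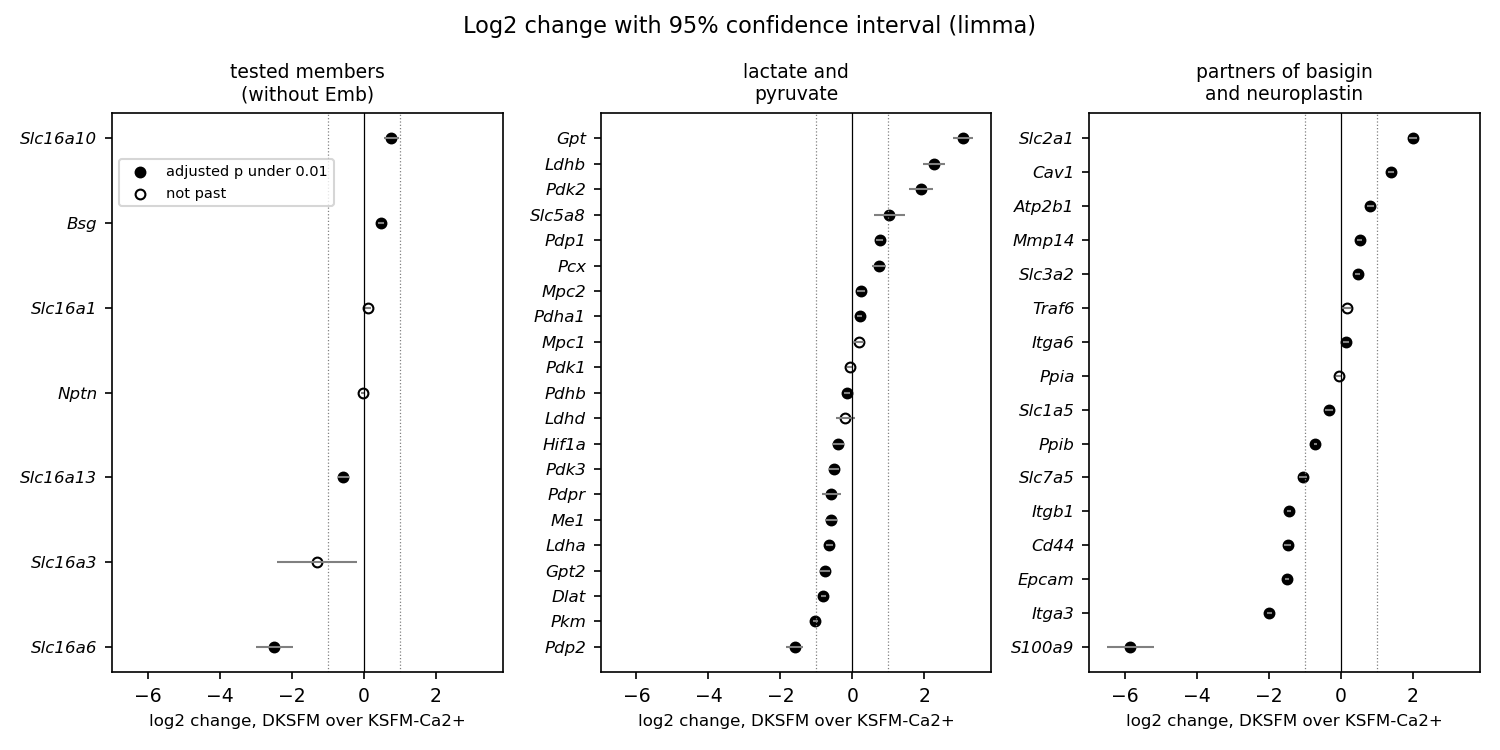
Log2 change (DKSFM over KSFM-Ca2+) with its 95% confidence interval from limma for the 7 tested members, the 21 tested genes of lactate and pyruvate handling, and 16 of the 17 tested partner and ligand genes of basigin and neuroplastin. Atp2b4 is left out because the KSFM-Ca2+ libraries are almost at 0. Filled points have an adjusted p under 0.01 and dotted lines mark 2-fold. Among the members Slc16a6 and Slc16a3 lie past 2-fold, Slc16a3 with an open point.

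Levels also differed between the lines around some members on their chromosomes. The median log2 change of tested genes within 10 Mb on each side was 0.60 around Slc16a1 (156 genes) and -0.43 around Nptn (150 genes). It was 0.22 around Bsg (201 genes), -0.15 around Emb (35 genes), -0.05 around Slc16a6 (242 genes), 0.26 around Slc16a10 (57 genes) and -0.17 around Slc16a13 (259 genes). Around Slc16a3 it was 0.03 (161 genes), and around Slc16a7, listed at 0, it was 0.25 (112 genes). Slc16a1 and Nptn thus changed less than the median of their surroundings. The part of these regions in the changes of the members was not tested.

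Other SLC16 genes described here had low coverage or none. Slc16a14, a transporter of little known function, was listed at 0 in the KSFM-Ca2+ libraries and 1.3, 1.8 and 2.0 in the DKSFM libraries. It was the only 1 of these genes to be tested and passed the filter through the DKSFM libraries alone, so its call has no weight and no count of these genes is read. Slc16a9, a carnitine transporter, was listed at 0.2, 0.1 and 0 and at 0.5, 0.5 and 0.7. Slc16a4 and Slc16a11 did not exceed 0.1 in any library. Slc16a5, Slc16a8 and Slc16a12 were listed at 0 throughout.

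Enzymes and carriers of lactate and pyruvate changed in both directions. Of the 24 genes on this list 21 were tested, of which 4 were higher in the DKSFM cells and 2 in the KSFM-Ca2+ cells by at least 2-fold. These are 19.0% and 9.52%, beside 13.1% and 10.6% of all tested genes. At the adjusted p alone 8 were higher in the DKSFM cells and 10 in the KSFM-Ca2+ cells, and 3 did not pass. These are 38.1% and 47.6%, beside 35.3% and 37.3% of all tested genes. The median log2 change was -0.16, beside -0.01 over all tested genes. Pdk4, the sodium-coupled carrier Slc5a12 and the lactate receptor Hcar1 were listed at 0 in all libraries.

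Ldha, the lactate dehydrogenase subunit of muscle type, fell from a normalized coverage of 1950 ± 100.2 in the KSFM-Ca2+ cells to 1252 ± 25.4 in the DKSFM cells (log2 change -0.64, SE 0.04, adjusted p = 1.4e-06 in limma). Ldhb, the heart-type subunit, rose from 5.72 ± 1.30 to 27.5 ± 0.718 (log2 change 2.27, SE 0.14, adjusted p = 1.2e-06). The ratio of Ldha to Ldhb coverage was 349 ± 55.3 in the KSFM-Ca2+ cells and 45.5 ± 1.02 in the DKSFM cells, so Ldha remained the main subunit in both. GENCODE names 2 pseudogenes after Ldha, with which reads could be shared. Pkm, which makes pyruvate in the last step of glycolysis, fell from 2485 ± 42.3 to 1216 ± 35.2 (log2 change -1.03).

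The other genes of the list past 2-fold were a transaminase, regulators of pyruvate dehydrogenase and a carrier. Gpt, which converts pyruvate and alanine into each other, rose from 5.10 ± 0.993 to 43.6 ± 1.45 (log2 change 3.08). Pdk2, a kinase that inhibits pyruvate dehydrogenase, rose from 1.53 ± 0.281 to 5.91 ± 0.347, and Pdp2, a phosphatase that reactivates it, fell from 13.4 ± 0.640 to 4.36 ± 0.582. Slc5a8, a sodium-coupled monocarboxylate carrier, was near the filter, with 0.540 ± 0.0475 and 1.21 ± 0.161. Its change was 2.04-fold, and it fell out of the count under several alternatives, which left 3 genes higher in the DKSFM cells. These were pseudocounts of 0.5 and 1, the filter in every library, the combined libraries alone with their single KSFM-Ca2+ library, and leaving out KSFM-Ca2+ replicate 2 or DKSFM replicate 3.

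Of 19 known partners and ligands of basigin and neuroplastin 17 were tested, of which 3 were higher in the DKSFM cells and 6 in the KSFM-Ca2+ cells by at least 2-fold. These are 17.6% and 35.3%, beside the same 13.1% and 10.6%. Atp2b4 passed the filter only through the DKSFM libraries, and without it the counts were 2 and 6 of 16 genes. At the adjusted p alone the counts were 7 and 8, and 2 did not pass. These are 41.2% and 47.1%, beside the same 35.3% and 37.3%. The median log2 change was -0.06, or -0.20 without Atp2b4. Slc2a1, the glucose transporter GLUT1, rose from 45.2 ± 2.33 to 182 ± 9.16 (log2 change 2.01, SE 0.05, adjusted p = 1.1e-08 in limma). Cav1, which encodes caveolin of the plasma membrane, rose from 478 ± 12.1 to 1254 ± 39.9 (log2 change 1.39).

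S100a9, a ligand of basigin and neuroplastin and an inflammatory calcium-binding protein, fell from 109 ± 10.8 to 1.90 ± 0.846 (log2 change -5.85, SE 0.28, adjusted p = 3.1e-07 in limma). The integrin subunits Itga3 and Itgb1, which bind laminin in basal keratinocytes, fell by 1.99 and 1.44 on the log2 scale. Itga6, another subunit that binds laminin, named after its values were seen, rose by 0.14 (adjusted p = 0.00477 in limma). The adhesion molecules Epcam and Cd44 fell by 1.51 and 1.48. Slc7a5, an amino acid transporter of the CD98 complex, fell by 1.06 on the log2 scale, while its heavy chain Slc3a2 rose by 0.47, from 525 ± 7.60 to 725 ± 15.7. Ppia, the cyclophilin that binds basigin, did not pass (1085 ± 25.3 and 1039 ± 17.6, log2 change -0.06, adjusted p = 0.0708 in limma).

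The calcium pumps that take neuroplastin or basigin as a subunit were uneven. Atp2b1 rose from 93.8 ± 2.26 to 166 ± 8.13 (log2 change 0.82, SE 0.04, adjusted p = 4.2e-07 in limma). Atp2b4 was listed at 0.2, 0 and 0 in the KSFM-Ca2+ libraries and 15.1, 14.9 and 15.5 in the DKSFM libraries. Atp2b2 and Atp2b3 were listed at 0 in all libraries.

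Cell type markers were read beside these values. Of 6 basal keratinocyte markers all were above 0, with a summed normalized coverage of 18921, 19380 and 18975 in the KSFM-Ca2+ libraries and 44660, 40834 and 45187 in the DKSFM libraries, led by Krt14. Krt14 and Krt5 carried the sum, with means of 11992 and 4691 in the KSFM-Ca2+ cells and 29678 and 11132 in the DKSFM cells. The other markers differed less, and Itgb4 was lower in the DKSFM cells, at 192 ± 8.57 against 321 ± 6.30. Of 10 sebaceous gland markers 7 were above 0 in at least 1 library, and the sum was 66.5, 65.8 and 66.5 against 51.4, 51.4 and 54.6. Scd1, a lipid desaturase made in many tissues, led it with 59.5 ± 0.272 in the KSFM-Ca2+ cells and 39.6 ± 1.08 in the DKSFM cells. The other 9 genes summed to 6.79 and 12.9, the opposite direction, with Soat1 at 4.97 ± 0.354 and 1.18 ± 0.0867 and Prdm1 at 0.682 ± 0.0866 and 3.73 ± 0.212. Krt79 was listed at 0 in the KSFM-Ca2+ libraries and 5.8, 6.0 and 7.1 in the DKSFM libraries, whereas Mc5r, Pparg and Cidea were listed at 0 in all libraries. The part of these markers in the level of Emb was not tested.

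In each list of markers of other skin cells, only 1 gene had a mean of 1 or more in either line. Of these leading genes, Mitf and Cd68 stood at percentiles 41.6 and 41.4 of the tested genes in the DKSFM cells. The fibroblast sum was 0.992 to 1.42 in the KSFM-Ca2+ libraries and 2.40 to 2.96 in the DKSFM libraries, led by Pdgfra, with 2 of 8 genes above 0 and Col1a1, Col1a2, Col3a1, Dcn, Lum and Thy1 at 0. The melanocyte sum was 3.97 to 4.61 and 17.3 to 18.8, nearly all of it Mitf, with 5 of 8 genes above 0 and Dct, Tyr and Kit at 0. Mitf alone carried the rise, from 3.52 ± 0.415 to 17.7 ± 0.673. Of the others, Pmel (0.595 ± 0.185 and 0.343 ± 0.145), Tyrp1 (0.0508 and 0.0333) and Mlana (0.0661 and 0) had lower means in the DKSFM cells. Sox10 went the other way (0 and 0.0333). The leukocyte sum was 11.0 to 12.9 and 14.5 to 21.3, led by Cd68, with 6 of 8 genes above 0 and Cd3e and Tyrobp at 0. The endothelial sum was 2.82 to 3.31 and 7.42 to 8.28, led by Pecam1, with 3 of 5 genes above 0 and Cdh5 and Emcn at 0. Each of these sums was higher in the DKSFM cells, and their part in the results was not tested.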

How the data were processed

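RNA of 6 libraries, 3 of each line, was analysed, with groups and replicate numbers from the labels. The authors aligned directional poly(A) reads to mm10 with STAR, quantified with Salmon and compared the lines with DESeq2. The authors deposited a signal, the mean read coverage per base of each gene, unscaled. How it was computed is not stated in the sources used here. Coverage is not a count, so no count model was fitted.

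Libraries were scaled with a trimmed mean of M values, unweighted (trims of 30% of M and 5% of A values, factors 0.990 to 1.01). Genes reaching 0.5 in 3 or more libraries after scaling were tested with limma 3.58.1 (R 4.3.3, intensity trend, two-sided) on log2(normalized coverage + 0.1), with Benjamini-Hochberg adjustment. Thresholds were an adjusted p of 0.01 and 2-fold. The procedure was tested on simulated data. Figures used matplotlib 3.10.9 (Python 3.11.15), and positions came from GENCODE M21.

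Members and lists were chosen with earlier results of these data known. Named genes were all members and SLC16 genes, except that the values of 1 are not reported here; in the other lists those past both thresholds (at most 6 in a direction, by size) plus Ldha, Ldhb, Pkm, Slc3a2, Ppia and Atp2b1; the 5 genes nearest to Emb among those listed at 0 in the KSFM-Ca2+ libraries only; and the leading and absent markers. Itga6 and the markers Krt5, Itgb4, Soat1, Prdm1, Krt79, Pmel, Tyrp1, Mlana and Sox10 were added after their values were seen. Neighbours and overlapping genes were named by position. Motifs were searched on both strands, and neither of the motifs given contains the other. Alternatives were other scalings, filters, pseudocounts and thresholds, no trend, a replicate block and libraries left out, the last with the filter in 2 libraries.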

Additional observations from a re-analysis of the deposited data

How the results depend on the processing

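The calls of Bsg, Slc16a6, Slc16a10 and Slc16a13 kept their direction and side of the threshold under every alternative run, with log2 changes of 0.43 to 0.51, -2.79 to -1.93, 0.64 to 0.83 and -0.61 to -0.52. At an adjusted p of 0.05, Slc16a1 (0.12) and Slc16a3 (-1.29) passed in limma, since the threshold itself moved. Leaving out each library in turn gave Slc16a3 a range of -1.74 to -0.86, and at 0.01 Slc16a3 passed only without KSFM-Ca2+ replicate 1. Its log2 change was -0.872 and -0.636 at pseudocounts of 0.5 and 1, and -1.86 with the combined libraries alone. Fits with a library left out, or with the combined libraries alone, asked for the filter in 2 libraries in place of 3. With the libraries marked as combined alone, Nptn turned to 0.016 (adjusted p = 0.729 in limma, 0.188 to 0.873 over the alternatives). That setting holds 1 KSFM-Ca2+ library, replicate 3, which is assumed to vary like the DKSFM libraries, so the turn rests on this library. Of the other SLC16 genes 1 was tested, Slc16a14, which passed the filter through the DKSFM libraries alone. The number of these genes higher in the DKSFM cells therefore has no weight. It was 1 in the main fit, 3 without a filter, 3 with the combined libraries alone, 1 to 3 with a library left out, and 0 with the filter in every library. The 4 lactate and pyruvate genes higher in the DKSFM cells became 3 under some alternatives, with Slc5a8 lost, and the 3 partner genes became 2 with the filter in every library, with Atp2b4 lost. That filter also lowered the genes higher in the DKSFM cells from 1629 to 1025, because fewer genes are tested, and left Slc16a3 without a value. Without Nptn the ratio of partners to transporters was 18.2 in the KSFM-Ca2+ cells and 29.5 in the DKSFM cells, and without Emb, chosen after seeing the data, 31.6 and 36.2, by construction. With a replicate block 1636 and 1316 genes passed in place of 1629 and 1316, and no call of a member changed. Deviations of libraries with the same number correlated at -0.00513, 0.0238 and -0.00610, so no effect shared by number was seen. With 3 libraries of each line this cannot show whether the replicates were matched. The rounding step of 0.1 limits all values near it, such as those of Slc16a3 and most other SLC16 genes, and no counting interval can be given without counts.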
